A study of Mus musculus with 36 samples.

Results

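The genes described here mark the oligodendrocyte lineage, from precursor cells to the myelin sheath, in cultures of mouse cortical cells. They were chosen by symbol, as 32 genes named for precursor, differentiating or myelin-forming oligodendrocytes, and by their mean count over 36 RNAseq libraries, which had to be above 5. All 32 named genes passed that minimum, out of 20355 genes that passed it and 55492 entries in the table. Opalin and Aspa lay just inside it, each with a mean of 5.06 counts, and Mbp had the highest mean, 6590 counts. Among other genes of the lineage, Neu4, with a mean of 4.08 counts, and Gjb1, with 3.81, lay just outside and were not tested.

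Oligodendrocytes wrap axons of the central nervous system in myelin. They arise from precursors that divide in response to platelet-derived growth factor and carry its receptor. The transcription factors Olig1, Olig2, Sox10 and Nkx2-2 specify the lineage and maintain it, and Myrf then switches on the genes of the sheath. A committed cell passes through a short-lived stage marked by Gpr17, Bcas1 and Enpp6 before it makes myelin proteins such as Mbp and the galactolipids that enrich the membrane. Glucocorticoids act through a receptor that these cells are known to carry. The 32 genes were therefore taken in 5 groups, namely precursor genes (3), lineage transcription factors (4), differentiating genes (7), myelin protein genes (13) and myelin lipid genes (5).

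The cultures were dissociated cortical cells of C57 mouse embryos at embryonic day 18 (C57EDCX), kept 10 days in vitro. They then received fresh medium (control), 1 µM dexamethasone (DEX), a synthetic glucocorticoid, or 1 µM DEX together with 1 µM RU-486, an antagonist of the glucocorticoid receptor, for 72 h with renewal at 48 h. Each group had 12 libraries, 6 in each of 2 batches named in the labels, which do not say whether libraries came from separate cultures, so p-values measure the spread between libraries and part of it may be technical. With bulk RNA of such cultures, fewer cells of a type and less RNA per cell cannot be told apart. The labels call the cells cortical cells and the study cultured them as primary neurons. In every library 8 neuron markers together reached 1830 to 9067 counts scaled to a common, TMM-adjusted library total (CPM), and the 13 myelin protein genes 115.0 to 291.5 CPM in the control libraries of batch 1 and up to 2319 CPM elsewhere.

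Total counts ran from 12133485 to 82437454 per library, and the RNA integrity number (RIN) from 1.4 to 9.2. In batch 1, RIN was 7.8 to 9.2 in control, 3.9 to 7.8 in DEX and 5.6 to 7.9 in DEX + RU-486, and every control library held more counts than every DEX library (at least 24200944 against at most 22328120). There, RIN and depth cannot be told apart from DEX. In batch 2, RIN was under 3 in 2 libraries of each group (control 19 and 20, DEX 25 and 26, DEX + RU-486 31 and 32, by library number), and the other 4 had a RIN of 7.4 to 8.7. In batch 1, DEX 12 (RIN 3.9) and DEX + RU-486 18 (RIN 5.6) fell under 6. Results of each batch are given with all libraries and with the 28 libraries of RIN 6 or above, called intact below. A gene was called higher or lower at an adjusted p under 0.05 by the quasi-likelihood test of edgeR, adjusted by Benjamini-Hochberg over all 20355 tested genes, and all adjusted p-values come from that test unless another is named.

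In the control cultures of batch 1, Mbp, the basic protein that compacts the sheath, was the most abundant of the 32 genes per kilobase of exon, at 8.71 ± 5.37 CPM per kb (SD, n = 6). Sirt2, a deacetylase found in the sheath, followed at 5.86 ± 0.87 and Enpp2, which makes the lipid signal lysophosphatidic acid, at 4.84 ± 0.327 CPM per kb. The SD of Mbp spans the next 2 genes, so their order is not resolved. Cspg4, the NG2 proteoglycan of precursors, Opalin and Aspa stood last, at 0.0324, 0.0238 and 0.00477 CPM per kb. In the intact control libraries of batch 2, Mbp reached 28.8 ± 3.58 CPM per kb (SD, n = 4), ahead of Cnp, a phosphodiesterase of the sheath, at 10.9 ± 2.14 and of Sirt2 at 10.5 ± 1.3, the latter pair not differing beyond their spread. Olig1 came next at 8.67 ± 1.14 CPM per kb, against 1.43 ± 0.763 in batch 1, and Pdgfra, the receptor of precursors, stood at 1.58 ± 0.245 against 0.229 ± 0.0939.

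The regions upstream of the genes were searched for short motifs, because Sox10 binds letters like ACAAAG and the glucocorticoid receptor letters like AGAACA, which form each arm of its response element. RefSeq promoters of GRCm38.p6, 250 bases before to 50 after a start, were matched by symbol to 24 of the 32 genes, with 29 starts. ACAAAG, on either strand, stood in 6 of the 29 (20.7%) and in 18.7% of 32851 promoters of the same length. AGAACA stood in 1 of the 29 (3.45%, Tspan2) and in 19% of all. The 250 bases before the start are shown for Mobp, Mal and Gjc3, on which the comparisons below turn, and for Cnp, a further myelin gene with the motif. Mal and Gjc3 hold neither set of letters. Capitals mark ACAAAG or its reverse complement CTTTGT, and each sequence runs 5′ to 3′ on the strand of its gene.
Mobp (chr9:120149492-120149741, plus strand): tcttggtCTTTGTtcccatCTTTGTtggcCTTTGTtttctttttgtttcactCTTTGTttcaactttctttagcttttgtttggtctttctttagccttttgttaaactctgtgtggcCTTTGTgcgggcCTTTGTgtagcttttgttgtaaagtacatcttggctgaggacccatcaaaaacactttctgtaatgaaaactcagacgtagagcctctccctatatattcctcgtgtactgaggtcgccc
Cnp (chr11:100574689-100574938, plus strand): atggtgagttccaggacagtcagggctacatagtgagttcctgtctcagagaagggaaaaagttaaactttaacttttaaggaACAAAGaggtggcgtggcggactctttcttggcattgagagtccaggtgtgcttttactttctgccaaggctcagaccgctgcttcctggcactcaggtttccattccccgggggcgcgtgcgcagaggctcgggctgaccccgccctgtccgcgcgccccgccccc
Mal (chr2:127656696-127656945, minus strand): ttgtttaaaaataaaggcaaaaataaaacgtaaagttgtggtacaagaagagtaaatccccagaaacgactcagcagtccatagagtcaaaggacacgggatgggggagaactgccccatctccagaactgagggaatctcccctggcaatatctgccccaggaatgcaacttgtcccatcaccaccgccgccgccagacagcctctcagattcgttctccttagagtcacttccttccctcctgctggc
Gjc3 (chr5:137963099-137963348, minus strand): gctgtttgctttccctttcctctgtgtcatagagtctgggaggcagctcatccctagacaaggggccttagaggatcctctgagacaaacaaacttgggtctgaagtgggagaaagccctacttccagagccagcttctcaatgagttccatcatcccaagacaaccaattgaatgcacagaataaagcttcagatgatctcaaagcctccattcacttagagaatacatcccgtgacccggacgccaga
Mobp has 6 matches here, and it was the 1 promoter of the 32851 with as many, a count made after its sequence was seen. Of E-box letters, bound by factors of the class of the Olig family, CAGCTG stood in 3 of the 29 promoters and in 16.3% of all. The variant CATATG stood in 2 and in 3.91% of all, and the variant CAGATG in 8 and in 17.2% of all. A match is only a match of letters in this window.

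Genes of all 5 groups differed between the control cultures of both batches. In intact control libraries, 20 of the 32 genes were higher in batch 2 than in batch 1 and 3 were lower, where 14.2% of all tested genes were called higher and 18.9% lower. The median log2 difference was 1.68 over the 32 genes and 0.02 over all genes. With all control libraries, 22 were higher and 0 lower (12% of all genes higher). All 4 lineage transcription factors were higher, with log2 differences of 2.58 for Olig1 (SE 0.30, adjusted p = 3.79e-07), 2.42 for Olig2, 2.28 for Sox10 and 3.04 for Nkx2-2. Of the precursor genes, Pdgfra was higher by 2.77 on the log2 scale (SE 0.47, adjusted p = 4.59e-05) and Cspg4 by 2.03, while Lhfpl3 was at 0.21 and was not called.

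The differentiating genes Gpr17, a receptor of committed precursors, Enpp6, a choline phosphodiesterase of newly formed oligodendrocytes, Bcas1 and Myrf were higher by 2.53, 2.50, 2.17 and 2.23. Among the myelin protein genes, Cnp was higher by 1.80, Mbp by 1.71, Gjc3, a connexin, by 1.56, Mag, an adhesion molecule facing the axon, by 1.47, Mobp, a basic protein of the sheath, by 0.89, Sirt2 by 0.82 and Mog by 0.63. Mal, a proteolipid of glycolipid-rich membrane, was at -0.33 (SE 0.39, adjusted p = 0.525) and was not called. The myelin lipid genes Ugt8a, Fa2h and Gal3st1, enzymes that make galactosylceramide, hydroxylate its fatty acid and add sulphate, were higher by 1.65, 1.83 and 1.87. Tspan2 (-0.70), Gpr37 (-0.76) and Enpp2 (-0.51) were lower. In these control libraries the median over the group was 2.50 for the transcription factors, 2.17 for differentiating genes, 2.03 for precursor genes, 1.83 for lipid genes and 0.63 for myelin protein genes. Of 8 neuron markers 2 were higher and 6 lower, and 2 of 8 astrocyte, 2 of 4 tested microglia, 1 of 3 tested Schwann cell and 2 of 6 cycling markers were higher, with 1 cycling marker lower. Their part in the difference was not tested. Culture, library preparation and all else that differs between batches cannot be told apart here.

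**Figure D1:**
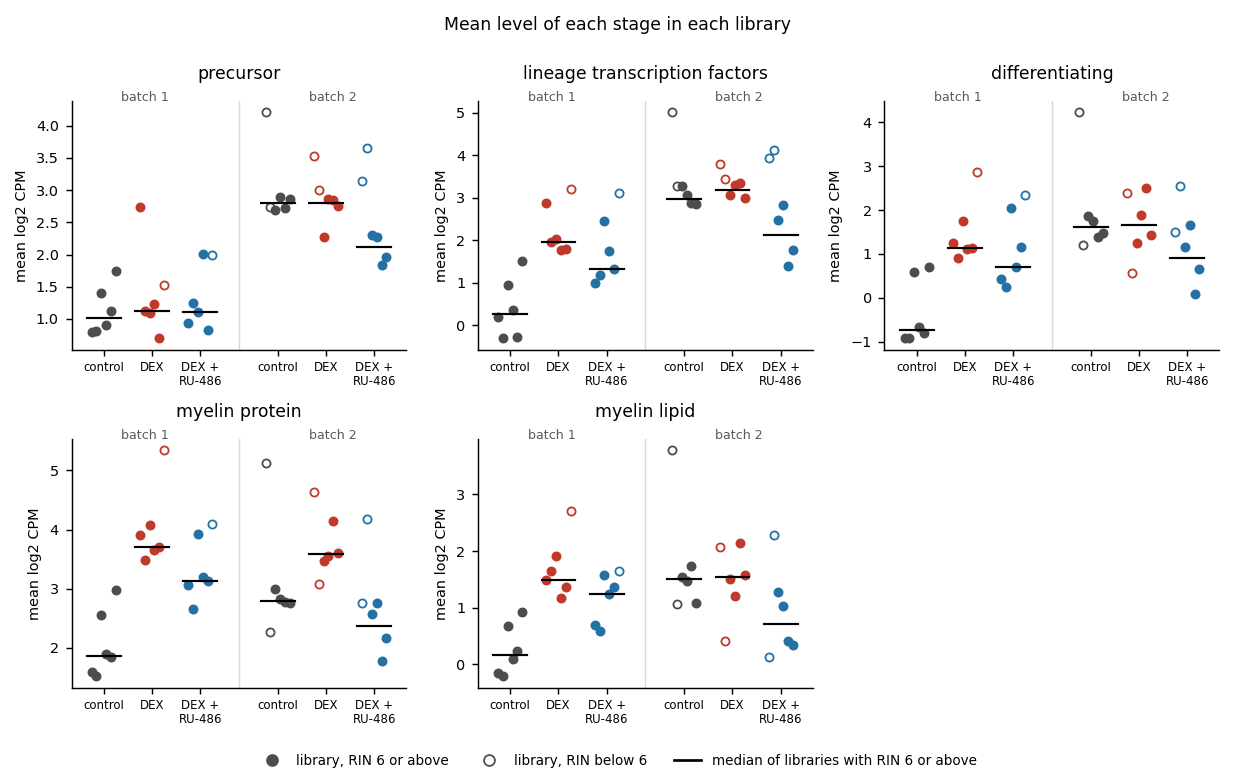
Mean log2 CPM over the genes of each of the 5 groups (y axis) in each library, by treatment and batch (x axis). Filled points are libraries of RIN 6 or above, open points lower RIN, and bars the median of the filled points. In control, the intact libraries of batch 2 average 3.02 for the lineage transcription factors, against 0.40 in batch 1.

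In batch 1, most genes of the lineage after the precursor stage were higher in DEX than in control. Of the 32 genes, 24 were higher and 0 lower, where 8.99% of all genes were higher, with a median log2 fold change of 2.15 against 0.06 over all genes. By group, 0 of 3 precursor genes, 4 of 4 lineage transcription factors, 6 of 7 differentiating genes, 11 of 13 myelin protein genes and 3 of 5 myelin lipid genes were higher. With the intact libraries, 23 were higher (9.26% of all genes), namely 1, 4, 5, 10 and 3 in the same groups, with Cspg4 (1.68, adjusted p = 0.0322) the precursor gene.

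Mobp had the largest fold change of the 32. Its level was 4.11, 9.54 and 24.2 CPM (lowest, median, highest) in the 6 control libraries, 73.6, 90.4 and 344.6 in DEX, and 20.1, 45.3 and 85.1 in DEX + RU-486. All DEX libraries were above all control libraries, and the DEX + RU-486 libraries overlapped with both other groups. Its log2 fold change in DEX against control was 3.53 (SE 0.47, adjusted p = 0.000318), which is 11.5-fold. Mal ran from 0.776 to 8.93 CPM (median 4.21) in control, from 17.4 to 82.4 (median 23.8) in DEX and from 5.85 to 21.4 (median 13.5) in DEX + RU-486, and DEX was higher than control by 3.05 on the log2 scale (SE 0.47, adjusted p = 0.000571). Gjc3 ran from 0.275 to 2.48 CPM (median 0.608) in control and from 4.76 to 13.5 (median 5.85) in DEX, higher by 2.74 on the log2 scale (SE 0.50, adjusted p = 0.00123). Mbp rose from a median of 50 CPM (35.6 to 151.7) to 278.9 (243.3 to 1187), by 2.62 on the log2 scale (SE 0.44, adjusted p = 0.000836). In all 4 of these genes the control and DEX libraries did not overlap, and the highest DEX value was that of DEX 12, the library of RIN 3.9.

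Earlier genes of the lineage were also higher. Sox10 ran from 1.27 to 5.50 CPM (median 2.57) in control and from 5.98 to 39.1 (median 11.1) in DEX, higher by 2.41 on the log2 scale (SE 0.47, adjusted p = 0.00187). The other lineage transcription factors were higher by 2.18 (Olig1), 2.00 (Nkx2-2) and 1.51 (Olig2). Myrf, the switch to myelin genes, was higher by 2.52 (SE 0.41, adjusted p = 0.000664), and the differentiating genes Nkx6-2, Tmem125, Gpr17, Enpp6 and Bcas1 by 1.92 to 2.76. The remaining myelin protein genes that rose were Mag (2.83), Ermn (2.58), Cldn11, the claudin of myelin tight junctions (2.46), Cnp (2.38), Sirt2 (1.35), Mog (1.28) and Gpr37 (0.61), and the lipid genes were Fa2h (2.55), Gal3st1 (2.23) and Ugt8a (2.03). The 8 genes not called were Pdgfra (0.79), Cspg4 (1.50, adjusted p = 0.0669), Lhfpl3 (-0.29), Bmp4 (0.84), Opalin (2.13), Tspan2 (-0.08), Aspa (2.87, adjusted p = 0.0679) and Enpp2 (-0.30), and Bmp4, Opalin and Aspa had few counts. For 18 of the 32 genes the lowest DEX library lay above the highest control library, which held for 3.2% of all genes.

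With RIN as a covariate in batch 1, 3 of the 32 remained higher in DEX, namely Mobp, Mal and Cnp, where 1% of all genes were called higher. At a p under 0.05 before adjustment 14 were higher and 0 lower, where 3932 of 20355 genes passed in either direction. The median log2 fold change was 1.06, against 2.15 without RIN. It was above 0 for 27 of the 32, and Gpr37, called higher without RIN, turned below 0. DEX + RU-486 had then 0 called in edgeR, with 11 higher and 1 lower at a p under 0.05 before adjustment (19.7% of all genes), and 0.806% of all genes called higher. Without RIN in the model, 5 of 8 neuron markers were lower in DEX than in control and 0 higher, and 4 of 8 astrocyte markers were higher and 0 lower. Of 6 genes of cycling cells, 3 were higher and 1 lower, and with the intact libraries 1 was higher and 1 lower. Of 3 tested Schwann cell markers and 6 tested vascular markers, 1 each was higher, and of 4 tested microglia markers 0 were called in edgeR, with 0 at a p under 0.05 before adjustment. Summed neuron markers were 2458 to 3219 CPM in control and 1830 to 2797 in DEX, and summed astrocyte markers 32.7 to 46.4 and 35.7 to 72.7 CPM. Schwann cell markers, which bear on Mal, Mag and Mbp since those cells also make myelin, summed to 2.88 to 8.59 CPM in control and 6.39 to 13 in DEX. The part of RIN, depth and these other cells in the lineage genes was not tested.

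**Figure D2:**
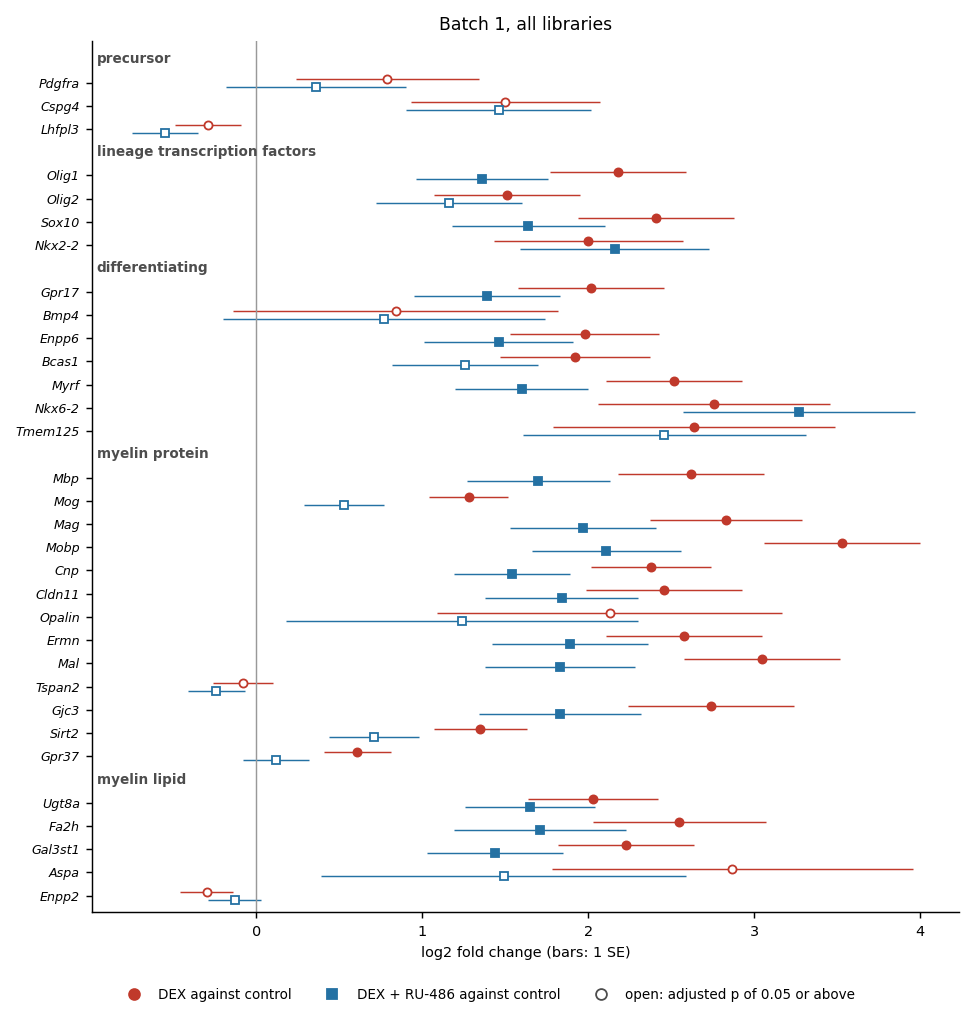
Log2 fold change (x axis, bars 1 SE) of each of the 32 genes, listed by group (y axis), in batch 1 with all libraries, for DEX (circles) and DEX + RU-486 (squares) against the same 6 control libraries. Filled symbols have an adjusted p under 0.05, and they number 24 for DEX and 18 for DEX + RU-486.

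Against control in batch 1, DEX + RU-486 had 18 of the 32 genes higher and 0 lower, where 6.92% of all genes were higher, with a median log2 fold change of 1.48 against 0.05 over all genes. With the intact libraries, 17 were higher (6.36% of all genes). Without control 2 or without DEX + RU-486 18, 12 were higher, where 3.22% and 3.58% of all genes were higher. The 18 were 3 lineage transcription factors, 4 differentiating genes, 8 myelin protein genes and 3 myelin lipid genes. Mobp was higher by 2.11 (adjusted p = 0.00494), Mal by 1.83, Gjc3 by 1.83, Mbp by 1.70 and Sox10 by 1.64. Nkx6-2, a homeobox factor of the lineage, was highest at 3.27 (SE 0.70, adjusted p = 0.00523) but from control levels of 0 to 0.284 CPM. Every DEX + RU-486 library lay above every control library for 2 of the 32, Nkx6-2 and Ermn, against 1.99% of all genes. Of the markers, 4 of 8 for neurons were lower, and 3 of 8 for astrocytes, 3 of 6 for cycling cells (with 1 lower), 1 of 3 tested for Schwann cells and 1 of 6 tested for vessels were higher, and their part in the result was not tested.

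Between DEX + RU-486 and DEX in batch 1, 0 of the 32 genes were called in edgeR and 0 in DESeq2 (0% of all genes in edgeR). At an unadjusted p under 0.05, 8 were lower and 0 higher, where 4.09% of all genes passed that threshold in either direction. The median log2 fold change was -0.65, with -1.41 for Mobp (SE 0.43), -1.22 for Mal (SE 0.44) and -0.92 for Mbp (SE 0.42). With intact libraries 0 were called in edgeR (0% of all genes), with 9 lower and 0 higher at a p under 0.05 before adjustment (5.84%), and Mobp (-1.06, SE 0.37) was the 1 of the 32 whose DEX + RU-486 libraries all lay below the DEX libraries, against 0.491% of all genes. Both comparisons with control share the same 6 control libraries, so they are given side by side and not as 2 pieces of evidence.

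In batch 2, all 6 libraries of each group gave no call. DEX against control had 0 of the 32 genes called in edgeR (0% of all genes) and 0 in DESeq2, with 1 higher and 1 lower at a p under 0.05 before adjustment (2.19% of all genes). Its median log2 fold change was -0.30 over the 32 genes, with 11 above 0, and 0.00 over all genes. Leaving out 1 library gave medians from -0.44 to 0.54. The medians for DEX + RU-486 were -0.68 against control and -0.51 against DEX, and 0.01 over all genes in both. DEX + RU-486 against control had 0 called in both tools (0% of all genes), with 6 lower at a p under 0.05 before adjustment (0.894%), and DEX + RU-486 against DEX 0 in both tools (0% of all genes), with 4 lower (2.18%). With RIN as a covariate, 0 of the 32 were called in edgeR in each comparison. At a p under 0.05 before adjustment, 3 were then higher and 0 lower in DEX against control (1347 of 20355 genes in either direction). For DEX + RU-486, 14 were lower against control (587 genes) and 11 against DEX (1418 genes), with 0 higher in both. The libraries of low RIN spread widely. Mobp was at 228.1 and 66.6 CPM in control 19 and 20, against 18.9 to 24.1 in the 4 intact control libraries. Mbp was at 1332 CPM in control 19 but at 269.8 in control 20, against 217.5 to 282.5 in the intact ones. Enpp2 was at 1.65 CPM in control 20, against 19.2 to 20.4. In none of the 32 genes, and in none of the 3 comparisons, were the 6 libraries of one group all above or all below those of the other. Over all genes the shares above and below were 0.054% and 0.0933% for DEX against control, 0.054% and 0.054% for DEX + RU-486 against control, and 0.118% and 0.0491% for DEX + RU-486 against DEX.

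**Figure D3:**
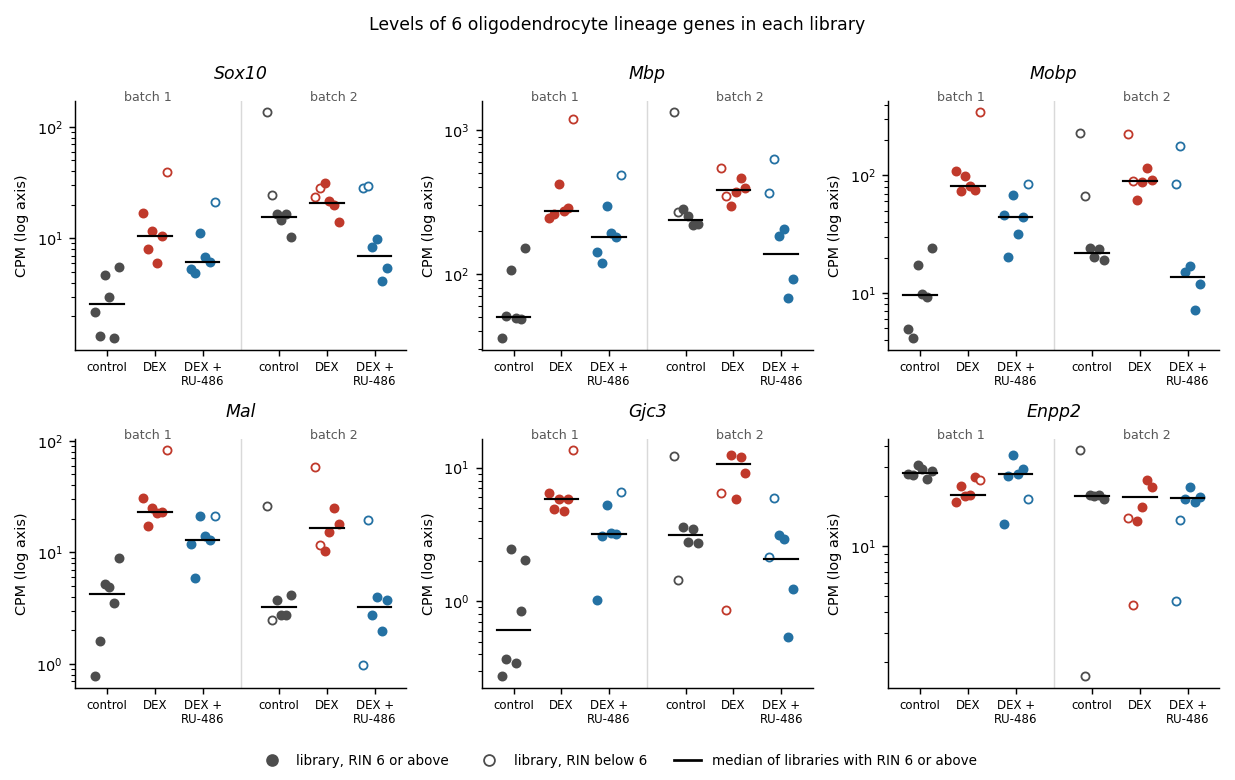
CPM (y axis, log scale) of 6 genes in each of the 36 libraries, by treatment and batch (x axis). Filled points are libraries of RIN 6 or above, open points lower RIN, and bars the median of the filled points. In batch 2 the intact DEX libraries of Mobp (61.7 to 114.6 CPM) and Mal (10.3 to 24.9) lie above every intact control library, and control 19, an open point, is the highest of all 36 libraries for Mbp and Sox10.

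With the 4 intact libraries per group of batch 2, whose total counts were 27806404 to 47326341 in control, 21333085 to 29263007 in DEX and 22756489 to 26963408 in DEX + RU-486, some genes were called. Mobp and Mal were the 2 genes called higher in DEX than in control, and 0 were lower, where 0.329% of all genes were higher. DESeq2 called 5 higher, adding Gjc3, Mag and Gpr37, where it called 2.51% of all genes higher. In edgeR, 10 of the 32 were higher and 0 lower at a p under 0.05 before adjustment, a threshold that 17.2% of all genes passed in either direction. The median log2 fold change was 0.40 over the 32 genes and 0.01 over all genes.

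Mobp was at 24.1, 20.2, 23.5 and 18.9 CPM in the intact control libraries, at 61.7, 87.1, 114.6 and 92.2 in DEX, and at 15.2, 16.8, 7.15 and 12 in DEX + RU-486. The 3 groups did not overlap, with DEX highest and DEX + RU-486 lowest. Its log2 fold change was 2.05 in DEX against control (SE 0.21, adjusted p = 0.000391), which is 4.15-fold, and -2.80 in DEX + RU-486 against DEX (SE 0.22, adjusted p = 1.66e-05).

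Mal was at 3.71, 2.74, 2.72 and 4.13 CPM in control, at 10.3, 15.1, 24.9 and 18.1 in DEX, and at 2.74, 4.01, 1.96 and 3.72 in DEX + RU-486. DEX was above both other groups in every library, and those overlapped. The log2 fold change was 2.38 in DEX against control (SE 0.26, adjusted p = 0.000768), which is 5.19-fold, and -2.46 in DEX + RU-486 against DEX (SE 0.27, adjusted p = 0.00088). Leaving out any 1 of the 12 libraries kept both calls for Mobp and Mal, with adjusted p of at most 0.0111.

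Gjc3 was at 3.59, 2.76, 3.5 and 2.73 CPM in control, at 12.5, 5.82, 12.1 and 9.06 in DEX, and at 3.12, 2.93, 0.538 and 1.24 in DEX + RU-486. Its DEX libraries again lay above both other groups. DEX against control gave 1.67 (SE 0.37, adjusted p = 0.053), which misses the threshold, and DEX + RU-486 against DEX -2.35 (SE 0.39, adjusted p = 0.0175).

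For DEX against control in these libraries, edgeR called no further gene of the 32. Mbp was at 282.5, 253.8, 217.5 and 222.0 CPM in control and at 296.4, 368.2, 461.0 and 393.0 in DEX, higher by 0.65 on the log2 scale (SE 0.25, adjusted p = 0.199). The groups did not overlap but the difference was not called. The same held for Mag (0.87, adjusted p = 0.0782), Gpr37 (0.55), Cnp (0.57) and Ugt8a (0.74), and with Mobp, Mal and Gjc3 these made 8 genes whose intact DEX libraries all lay above the control libraries, against 4.47% of all genes. The lineage transcription factors had log2 fold changes of -0.24 to 0.60, with 0 of 4 called and 1, Sox10, at a p under 0.05 before adjustment, and DESeq2 called 0 of them. The precursor genes ran from -0.37 to 0.32.

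Between DEX + RU-486 and DEX, 12 of the 32 genes fell and 0 rose in the intact libraries of batch 2, where 0.811% of all genes were lower. The median log2 fold change was -1.21 against 0.01 over all genes, and 21 were lower at a p under 0.05 before adjustment, where 19.3% of all genes passed in either direction. The 12 were 1 of 3 precursor genes (Cspg4, -1.16), 1 of 4 lineage transcription factors (Sox10, -1.65), 1 of 7 differentiating genes (Myrf, -1.45), 7 of 13 myelin protein genes and 2 of 5 myelin lipid genes. Beside Mobp, Mal and Gjc3, the myelin protein genes that fell were Mag (-1.77), Mbp (-1.47), Cnp (-1.47) and Sirt2 (-0.79), and the lipid genes were Gal3st1 (-1.58) and Ugt8a (-1.47). For 15 of the 32 every DEX + RU-486 library lay below every DEX library, against 3.93% of all genes. DESeq2 called more of the 32 in these libraries than edgeR did, a count given in the section on processing.

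The count of 12 rested on single libraries. It was 3 without DEX + RU-486 36 (Mobp, Mal and Mag), 4 without DEX + RU-486 35, DEX 28 or DEX 29, 6 without DEX 27 or control 23, 7 without control 21 or 22, and 16 or 17 without DEX 30 or DEX + RU-486 34. In the same order, the share of all genes called lower was 0.0295%, then 0.0344%, 0.0442% and 0.128%, then 0.142% and 0.157%, then 0.177% and 0.177%, and at last 2.94% and 2.06%. DEX + RU-486 35 and 36, whose RIN of 8.7 and 8.5 was above that of the other 10 intact libraries of the batch, were the lowest of the batch in much of the lineage. Mbp was at 67.6 and 92.7 CPM in them against 183.5 and 203.5 in DEX + RU-486 33 and 34. Sox10 was at 4.15 and 5.41 against 8.41 and 9.86, and Bcas1 at 6.27 and 7.77 against 20.5 and 29.7. The part of RIN in this was not tested.

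**Figure D4:**
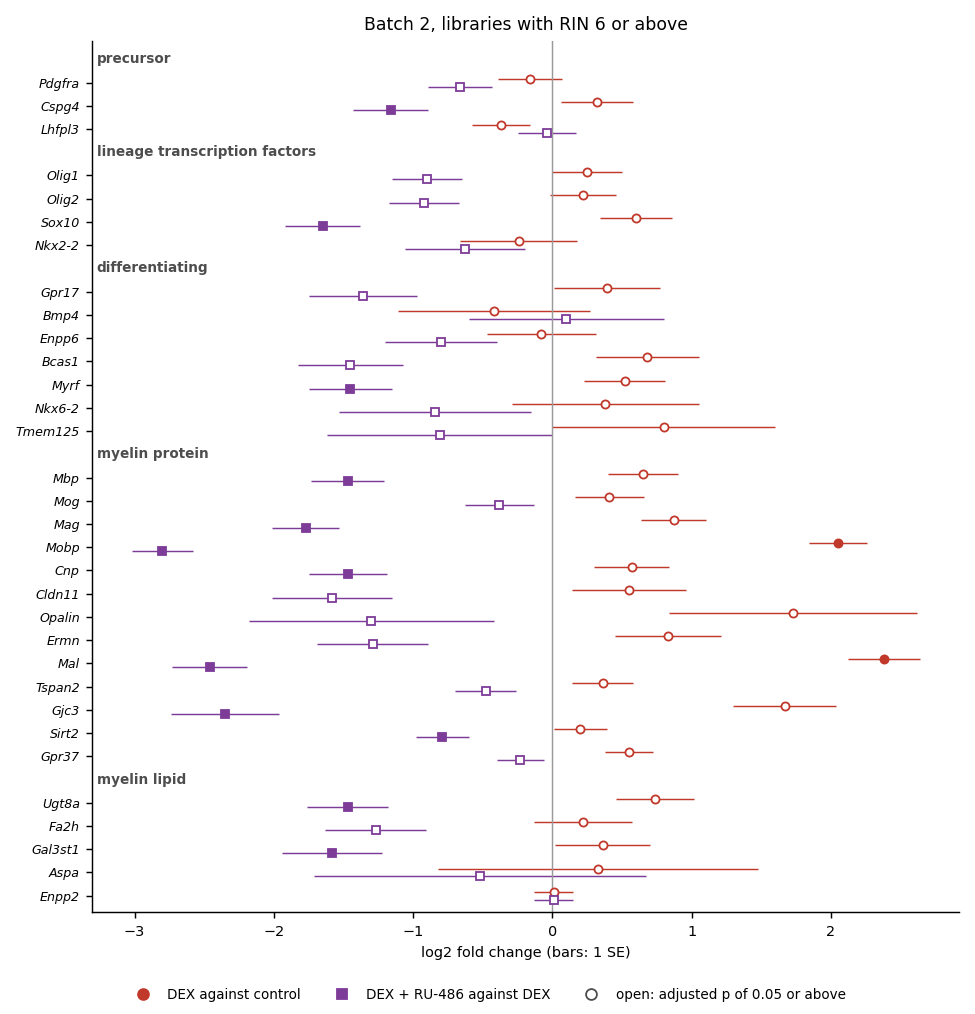
Log2 fold change (x axis, bars 1 SE) of the 32 genes by group (y axis) in batch 2, with the 4 intact libraries of each group, for DEX against control (circles) and DEX + RU-486 against DEX (squares), which share the DEX libraries. Filled symbols have an adjusted p under 0.05, 2 for the first comparison and 12 for the second, and Mobp, Mal and Gjc3 lie farthest from 0 in the second.

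DEX + RU-486 was also set against control in these libraries, where 0 of the 32 were called in edgeR (0.00491% of all genes) and 2, Sox10 and Mag, were lower in DESeq2, as were 0.0639% of all genes. At an unadjusted p under 0.05 in edgeR, 17 were lower and 0 higher (7.55% of all genes in either direction), with a median of -0.72 against 0.03 over all genes. Mbp was at -0.82 (SE 0.26), Sox10 at -1.05 (SE 0.27) and Gal3st1 at -1.23 (SE 0.36), while Mal was at -0.08 (SE 0.27). In 7 of the 32, every DEX + RU-486 library lay below every control library (Cspg4, Sox10, Mbp, Mobp, Cldn11, Sirt2 and Gal3st1), against 4.11% of all genes. Markers of neurons, astrocytes, microglia, Schwann cells, vessels and cycling cells had 0 called in any of the 3 comparisons in these libraries in edgeR, and at a p under 0.05 before adjustment the 8 astrocyte markers had 3 higher in DEX than in control and, against DEX, 3 lower in DEX + RU-486, and the 8 neuron markers 1 higher and 1 lower in DEX than in control. For DEX + RU-486, neuron markers had at that threshold 1 higher and 2 lower against control, and 3 higher and 2 lower against DEX. Cycling genes had 1 higher in DEX than in control and 1 lower in DEX + RU-486 against DEX, where vascular markers had 1 higher. Summed neuron markers were 2019 to 2320, 2061 to 2260 and 2031 to 2111 CPM in control, DEX and DEX + RU-486. Summed astrocyte markers were 35.4 to 46.5, 47.1 to 71.4 and 38.8 to 45.8 CPM, so the DEX libraries were the highest in both astrocyte markers and Mobp. Schwann cell markers summed to 7.29 to 7.96, 5.96 to 13.3 and 6.98 to 9.28 CPM. The part of astrocytes and of RIN in these results was not tested.

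Levels relative to Mbp show how Mobp and Mal moved within the set of myelin genes. In the intact libraries of batch 2, log2 CPM of Mobp minus that of Mbp was -3.65 to -3.21 in control, -2.26 to -2.01 in DEX and -3.59 to -2.94 in DEX + RU-486. Mobp was thus nearer to Mbp in every intact DEX library than in any other intact library of the batch. With all libraries of batch 2 the 3 groups overlapped, at -3.65 to -2.02 in control, -2.26 to -1.27 in DEX and -3.59 to -1.82 in DEX + RU-486. In batch 1 with all libraries, the same difference was -3.60 to -2.32 in control, -2.08 to -1.17 in DEX and -2.59 to -1.61 in DEX + RU-486, with control and DEX apart and DEX + RU-486 overlapping with both. For Mal minus Mbp, intact DEX libraries of batch 2 (-4.83 to -4.20) lay above control (-6.50 to -5.72) and overlapped with DEX + RU-486 (-6.03 to -4.61), and in batch 1 control (-5.39 to -3.31) and DEX (-4.07 to -2.98) overlapped. These differences were formed after the levels were seen and carry no test.

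**Figure D5:**
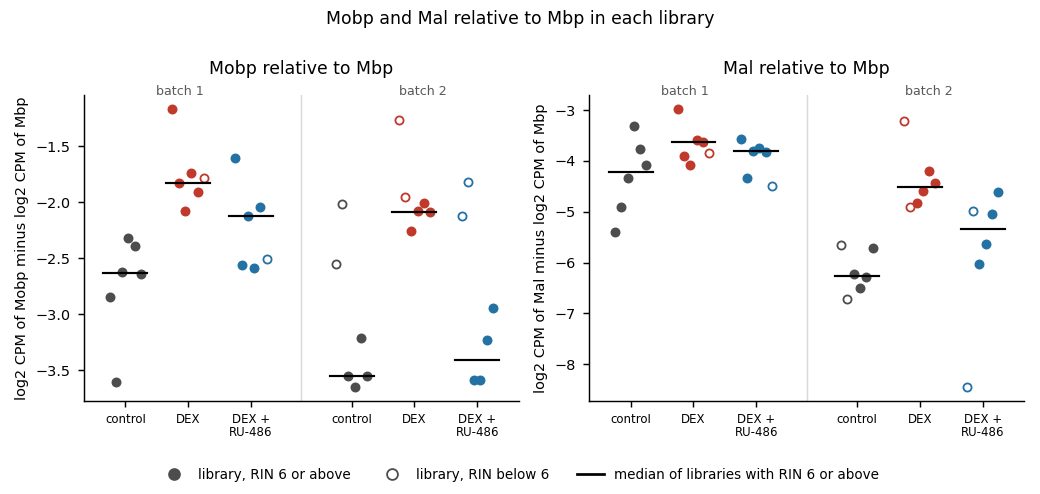
Log2 CPM of Mobp (left) and Mal (right) minus log2 CPM of Mbp (y axis) in each library, by treatment and batch (x axis). Filled points are libraries of RIN 6 or above, open points lower RIN, and bars the median of the filled points. For Mobp, the intact DEX libraries lie between -2.26 and -1.17 in both batches, and all intact control libraries below them.

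The difference between batches was tested as an interaction. For DEX against control with all libraries, 0 of the 32 were called in edgeR (0.172% of all genes), with the effect lower in batch 2 for 22 and higher for 0 at a p under 0.05 before adjustment (12.9% of all genes). For DEX + RU-486 against control, 1 was called, Gal3st1 (-3.53, adjusted p = 0.0438; 0.0835% of all genes), with 22 lower at a p under 0.05 before adjustment (11.9%). For DEX + RU-486 against DEX, 0 were called (0% of all genes) and 0 passed a p under 0.05 before adjustment (2.29%), and with intact libraries 0 were called in edgeR (0.00491%), with the effect lower in batch 2 for 7 and higher for 0 at that threshold (11.2%) and a median of -0.62. With intact libraries, the DEX difference had 0 called in edgeR (4.25% of all genes) with 16 lower and 1 higher at a p under 0.05 before adjustment (18.7%), and the difference for DEX + RU-486 against control had 14 lower (0.639% of all genes). Those 14 were Olig1, Sox10, Nkx2-2, Myrf, Mbp, Mag, Mobp, Cnp, Cldn11, Ermn, Sirt2, Ugt8a, Fa2h and Gal3st1. For Mal the DEX effect in intact libraries differed between batches by -0.14 (SE 0.55, adjusted p = 0.931), for Gjc3 by -0.74 (SE 0.65) and for Mobp by -0.87 (SE 0.48), against -1.35 for Mbp (SE 0.45, adjusted p = 0.0819) and -1.45 for Olig1 (SE 0.44, adjusted p = 0.056).

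Over both batches with batch as a covariate, 0 of the 32 were called in DEX against control in edgeR (0.0246% of all genes), with 9 higher and 1 lower at a p under 0.05 before adjustment (16.9%) and a median log2 fold change of 0.65. Mal (2.28, SE 0.48, adjusted p = 0.0516) and Mog (0.92, SE 0.20, adjusted p = 0.0533) came nearest. DESeq2 called 5 higher, namely Mal, Mobp, Olig1, Gjc3 and Mog, where it called 1.15% of all genes higher. Without control 19 edgeR called 13 higher, where 0.771% of all genes were higher, with Mal at 2.96 (SE 0.41, adjusted p = 0.000187), Mobp at 2.70 and Gjc3 at 2.05. With the 28 intact libraries, 21 were higher and 0 lower (7.83% of all genes), with a median of 1.15, led by Mobp (2.49, SE 0.33, adjusted p = 8.11e-05), Mal (2.48, SE 0.32, adjusted p = 6.78e-05), Gjc3 (2.04) and Mag (1.65). In batch 1 the RIN of these DEX libraries was still 6.2 to 7.8, against 7.8 to 9.2 in control. In the fit of the 28 intact libraries, 5 of 8 astrocyte markers were higher in DEX and 0 lower, and 4 of 8 neuron markers were lower and 0 higher. Of 6 cycling genes 1 was higher and 1 lower, and of 3 tested Schwann cell markers 1 was higher. The part of these cells in the result was not tested.

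DEX + RU-486 against control had 0 of the 32 called over both batches in edgeR and DESeq2 (0% of all genes in edgeR), with 0 higher and 1 lower at a p under 0.05 before adjustment (10.8%). With intact libraries 1 was higher, Mal at 1.02, and 0 lower (2.99% of all genes higher). DEX + RU-486 against DEX had 0 called in both tools (0% of all genes in edgeR), with 7 lower and 0 higher at a p under 0.05 before adjustment (2.68%), and with intact libraries 0 called in edgeR (0%) and 1 in DESeq2 (Mobp, -1.65, where DESeq2 called 0.054% of all genes lower), with 19 lower at a p under 0.05 before adjustment in edgeR (8.93%).

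Other genes of the lineage, taken as 4 further lists, were read beside the 32. In batch 1, where 8.99% of all genes were higher and 9.99% lower, DEX against control had 11 of 27 other myelin genes higher and 2 lower, among them Tmem88b (1.70, adjusted p = 0.00105). Other differentiating genes had 5 of 12 higher, including Tns3 (1.95) and Itpr2 (1.94), and 1 lower, Rras2 (-0.67). Other precursor genes had 5 of 12 higher, including Sox8 (1.74), Sox5 (1.07) and Gpr37l1 (3.32), and 1 lower. Signals that act on the lineage had 2 of 17 higher, including Notch1 (2.00), and 3 lower, including Lingo1 (-0.59) and Thra (-0.33).

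In the intact libraries of batch 2, 1 of 27 other myelin genes was called higher in DEX and 0 lower, and the 3 other lists had 0 called in edgeR. At an unadjusted p under 0.05, other myelin genes had 8 higher and 2 lower, other precursor genes 2 higher and 2 lower, signals 1 higher and 1 lower and other differentiating genes 1 lower, beside the 17.2% of all genes. Against DEX, where 0.811% of all genes were lower and 0.747% higher, DEX + RU-486 had 6 of the 27 lower and 0 higher, including Apod (-1.60, adjusted p = 0.0298) and Adamts4 (-1.83, adjusted p = 0.0372). It also had 1 of 12 other precursor genes lower, Ptprz1 (-0.63), and 1 of 17 signals higher, Lingo1 (0.66). In intact control cultures, batch 2 against batch 1 had 6 of 12 other precursor genes higher and 0 lower, including Sox8 (2.27) and Sox6 (2.00), where 14.2% of all genes were higher and 18.9% lower. Other differentiating genes had 5 of 12 higher and 1 lower, other myelin genes 13 of 27 higher and 5 lower, and signals 4 of 17 higher and 4 lower. In batch 1, 3 of 6 known targets of the glucocorticoid receptor were higher in DEX, Tsc22d3 (0.67), Per1 (0.80) and Ddit4 (0.37), against 8.99% of all genes. In DEX + RU-486 against control 2 of the 6 were higher there, Per1 (0.75) and Ddit4 (0.50), against 6.92% of all genes, and 0 were called against DEX in edgeR, with 1 lower at a p under 0.05 before adjustment. For these targets the intact libraries of batch 2 had 0 of 6 called in each of the 3 comparisons in edgeR. At a p under 0.05 before adjustment, 1 was higher and 0 lower in DEX against control (17.2% of all genes), 0 and 2 in DEX + RU-486 against control (7.55%), and 1 and 1 in DEX + RU-486 against DEX (19.3%).

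Reads of 14 of the 32 genes share exon bases with another gene, on the same strand for Mobp (79 bases with Gm38642) and Pdgfra (30 bases with Mir7025) and on the opposite strand for the others, such as Cnp (154 bases with Dnajc7), Nkx6-2 (246 bases with Inpp5a) and Gpr17 (188 bases with Lims2). Whether the counting used strand is not given in the sources used here, so the levels of these genes may hold reads of their neighbours. Mal, Gjc3, Mbp, Mag and Sox10 share none.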

How the data were processed

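RNAseq was read in 36 libraries of mouse cortical cell cultures. The deposited table holds read counts per gene that the authors made with HISAT2 2.1.0 and Subread 1.5.0-p2 against GRCm38, per the submitters' processing notes. The study's methods describe a composite reference, GRCm38 with spliced ribosomal protein mRNAs added, on which reads had to match exactly and at a single place. The annotation release and strand setting are not given in the sources used here, and the labels describe poly(A) selection where the study's methods describe a total RNA library. Symbols were taken from GENCODE M21, which matched 55227 of 55492 entries, and 5 transgene names, holding 6.22e-06% of counts, were left out.

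Genes with a mean count above 5 over all libraries were tested with TMM factors and the quasi-likelihood test of edgeR 4.0.16 in R 4.3.3, with batch as a covariate where both batches were fitted, and Benjamini-Hochberg adjustment over 20355 genes. Standard errors are the absolute log2 fold change over the square root of F. Log2 CPM used a prior count of 2. The members and all gene lists were chosen with earlier results of these data known. Every member is described, and of the other lineage lists up to 3 genes a list with the smallest adjusted p under 0.05 in a comparison are named, except genes that are not reported here. Alternatives were DESeq2 1.42.0, RLE and upper-quartile factors, no filter, filterByExpr, RIN as a covariate, libraries of RIN 6 or above, and each library left out in turn. Total counts of 12133485 to 82437454 limit the precision of genes with few counts, such as Opalin and Aspa. The scripts were tested on simulated data. No 2 libraries held identical counts.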

Additional observations from a re-analysis of the deposited data

Results flagged for a closer look

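In 29 of 192 sets of 6 libraries (1 gene in 1 group of 1 batch), 1 library stood apart from the others of its group by Dixon's criterion, which chance alone gives in about 1 in 20. Among the 29, control 19 of batch 2 (RIN 2.7) was the highest of its group in 11 genes, with CPM of 135 for Sox10, 4.1 for Nkx2-2, 49.5 for Gpr17, 81.5 for Enpp6, 195 for Bcas1, 1332 for Mbp, 243 for Cnp, 26.3 for Mal, 289 for Sirt2, 11.5 for Fa2h and 10.9 for Gal3st1. DEX 12 of batch 1 (RIN 3.9) was the highest of its group in 6 genes, with CPM of 1187 for Mbp, 345 for Mobp, 131 for Cnp, 82.4 for Mal, 13.5 for Gjc3 and 176 for Sirt2.

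The libraries of lowest RIN in batch 2 stood apart downward. DEX 26 (RIN 1.4) was lowest in Myrf (6.94 CPM), Mag (7.33), Gjc3 (0.858), Ugt8a (3.12) and Enpp2 (4.44). Control 20 (RIN 1.8) was lowest in Lhfpl3 (4.96 CPM), Mog (0.413) and Enpp2 (1.65). DEX + RU-486 31 (RIN 1.5) was lowest in Tspan2 (3.3 CPM) and Enpp2 (4.66) and highest in Tmem125 (1.55). Enpp2 was thus low in 1 library of RIN under 2 in each of the 3 groups. The remaining case was Aspa in control 6 of batch 1, at 0.151 CPM, a gene of few counts. The part of RIN in these values was not tested.

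The response to DEX + RU-486 differed between batches for Gal3st1, the enzyme that adds sulphate to galactosylceramide, with a log2 difference of -3.53 (SE 0.75) in the interaction test of edgeR (adjusted p = 0.0438). The control libraries of batch 2 include control 19, where Gal3st1 stood apart, and in the libraries of RIN 6 or above the difference was -2.28 (adjusted p = 0.0212).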

How the results depend on the processing

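No paired analysis was possible because the libraries carry numbers 1 to 36 with none shared between groups. Counts here are of the 32 genes called in edgeR unless another tool is named. Over both batches, DEX against control had 0 called, 5 with DESeq2, 1 with upper-quartile factors, 1 without a filter, 4 with RIN as a covariate, 21 with RIN 6 or above and 22 with DESeq2 at RIN 6 or above. In the same order, 3, 235, 4, 5, 187, 1594 and 2251 of all tested genes were called higher. These were out of 20355 genes, or 45544 without a filter. Leaving out each library gave 0 to 13, with 13 without control 19, 5 without control 20 and 2 without DEX 26. Without control 19, 157 of all 20355 genes were called higher. The shares of all genes beside 5 and 2 are not given here. DEX + RU-486 against control had 1 with RIN 6 or above and 2 with DESeq2 there, and 0 to 1 with a library left out, and DEX + RU-486 against DEX had 1 with DESeq2 at RIN 6 or above and 0 in every leave-one-out fit. In batch 1, RIN as a covariate gave 3 for DEX and 0 for DEX + RU-486 against control, and leaving out each library gave 21 to 25 and 12 to 21. For these leave-one-out fits, the share of all genes is given above only beside the count of 12. In batch 2, libraries of RIN 6 or above gave 2 for DEX, 5 with DESeq2, 12 for DEX + RU-486 against DEX, 19 with DESeq2, and 2 for DEX + RU-486 against control with DESeq2. For the count of 19, the share of all genes called is not given here. With all its libraries, each left out in turn, 0 were called in every comparison, and with RIN 6 or above these fits gave 2 to 3, 0 and 3 to 17 (3 without DEX + RU-486 36, 9 without control 24, 15 without DEX + RU-486 33, 16 without DEX 30, 17 without DEX + RU-486 34). The shares of all genes are given above for 3, 16 and 17. Those for 9 and 15 are not given here, so these counts cannot be set against all genes. The interaction for DEX + RU-486 against control had 14 with RIN 6 or above. Of 65 single calls, 58 kept direction and threshold with RIN 6 or above and 7 lost the threshold. RIN as a covariate was not run on the batch difference in control or on the interactions. Among the calls it was run on, 3 were kept, 38 lost the threshold and Gpr37 turned to -0.03 in DEX against control of batch 1. DESeq2 kept the 42 calls it was run on. Opalin and Aspa were not tested with filterByExpr, which tested 30. DESeq2 and single libraries left out at RIN 6 or above were chosen after seeing the data. The cause of these changes was not tested.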
